A study of Mus musculus with 8 samples.

Results

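The cells named Megakaryocytes were set against those named EMP (erythro-myeloid progenitors) in wild-type (WT) embryos at E10.5. The members were all WT cells carrying either name in the deposited annotation, and they were compared library by library. The 4 libraries that held at least 10 cells of each type, WT replicates 1, 2, 4 and 5, gave 539 cells, out of 8423 WT cells and 15168 cells in the whole series. These were 187 megakaryocytes, of which 33 came from WT 1, 28 from WT 2, 24 from WT 4 and 102 from WT 5, and 352 EMP, of which 59, 79, 103 and 111 came from the same libraries. WT 3 held 38 EMP but only 5 megakaryocytes and entered no comparison of summed RNA. The authors had named the clusters from the RNA of these same cells, so that the RNA differences given here describe how the named clusters differ and are no independent test of the names. The antibody tags were not part of the clustering.

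CD31+ cells, the endothelial and attached blood cells that carry Pecam1 protein, were sorted from the dissected aorta-gonad-mesonephros (AGM) region and profiled by CITE-seq, which reads the RNA of single cells together with DNA-tagged antibodies bound to their surface. The WT embryos were of the C57BL/6 strain, with no treatment named, and the cells of several embryos were pooled for a library. The cell names of WT 5 start with Mf, letters close to the study's short name for floxed Meis1 with Cre (Mff_Cre). The labels give WT 5 as WT. For its crosses of floxed Meis1 mice, the paper uses the name WT for littermates without Cre. Whether the embryos of WT 5 carried a floxed allele is not stated in the sources used here. The second group, Meis1-flox/VE-Cre, had 3 libraries of the same stage, tissue and sort, from embryos with a loxP-flanked Meis1 and a Cre recombinase under the VE-cadherin promoter, an endothelial promoter. That group was used only to set the same comparison beside the WT values. Since every cell had passed the CD31 gate, megakaryocytes and EMP with little CD31 were not sampled.

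Megakaryocytes are the large polyploid cells that shed platelets. They load alpha granules with adhesive proteins and chemokines, carry the receptors by which platelets bind von Willebrand factor, fibrinogen and collagen, and extend proplatelets on a cortex of beta1-tubulin. EMP are the transient progenitors of the yolk sac, marked by Kit, Cd34 and Myb, that seed the embryo with erythroid, megakaryocytic and myeloid cells. GATA-1 and the ETS factor Fli1 are the classical regulators of megakaryocyte genes.

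The promoters of 5 platelet genes are printed here because these genes mark the megakaryocyte cluster and because GATA and ETS factors are known to act at such genes. Each is the RefSeq window on GRCm38.p6 from 250 bases before to 50 bases after the annotated start, 5′ to 3′ on the gene's own strand. Capitals mark a GATA motif (GATAA, or TTATC on the other strand) or an ETS motif (AGGAAG, or CTTCCT on the other strand), and no match of either overlapped one of the other. Pf4 lies at chr5:90772185-90772484 on the plus strand, Ppbp at chr5:90768268-90768567 on the plus strand, Itga2b at chr11:102469834-102470133 on the minus strand, Gp9 at chr6:87777820-87778119 on the plus strand and Gp1bb at chr16:18622354-18622653 on the minus strand.
Pf4: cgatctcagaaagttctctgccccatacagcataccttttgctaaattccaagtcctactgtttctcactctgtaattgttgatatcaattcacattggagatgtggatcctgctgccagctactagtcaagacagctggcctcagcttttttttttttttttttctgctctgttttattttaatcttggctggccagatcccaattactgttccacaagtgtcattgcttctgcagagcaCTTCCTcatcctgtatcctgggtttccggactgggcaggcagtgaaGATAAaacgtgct
Ppbp: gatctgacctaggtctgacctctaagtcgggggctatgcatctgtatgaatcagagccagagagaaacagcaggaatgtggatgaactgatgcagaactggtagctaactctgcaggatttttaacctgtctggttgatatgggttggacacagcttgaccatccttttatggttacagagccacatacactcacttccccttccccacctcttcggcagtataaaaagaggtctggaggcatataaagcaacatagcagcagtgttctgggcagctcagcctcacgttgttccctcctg
Itga2b: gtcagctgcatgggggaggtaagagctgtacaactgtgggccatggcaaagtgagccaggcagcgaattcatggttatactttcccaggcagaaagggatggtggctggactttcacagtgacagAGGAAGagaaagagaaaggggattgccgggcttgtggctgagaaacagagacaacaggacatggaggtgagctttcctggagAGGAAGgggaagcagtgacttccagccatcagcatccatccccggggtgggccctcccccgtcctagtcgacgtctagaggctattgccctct
Gp9: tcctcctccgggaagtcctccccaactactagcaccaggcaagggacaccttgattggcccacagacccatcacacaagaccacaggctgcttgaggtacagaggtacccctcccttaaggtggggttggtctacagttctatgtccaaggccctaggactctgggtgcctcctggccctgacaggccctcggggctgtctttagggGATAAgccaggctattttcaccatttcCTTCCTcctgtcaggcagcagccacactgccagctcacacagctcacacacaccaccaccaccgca
Gp1bb: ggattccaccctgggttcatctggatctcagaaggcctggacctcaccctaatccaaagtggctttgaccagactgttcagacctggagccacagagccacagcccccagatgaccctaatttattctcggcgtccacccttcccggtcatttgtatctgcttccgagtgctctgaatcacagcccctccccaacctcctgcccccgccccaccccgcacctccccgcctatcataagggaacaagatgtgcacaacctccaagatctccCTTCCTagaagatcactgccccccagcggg

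The Pf4 and Gp9 windows held 1 match of each motif. Itga2b held 2 ETS matches, Gp1bb held 1, and Ppbp held neither. Over all 32851 promoter windows, 25.4% held a GATA match and 35.4% an ETS match. Over the 9258 windows of genes tested for the comparison, the shares were 16.2% and 33.7%. Of the 17 windows found for the adhesion receptor genes, 5 (29.4%) held GATA and 10 (58.8%) ETS. Among the 22 windows of alpha granule genes, 8 (36.4%) held GATA and 14 (63.6%) ETS, whereas of the 34 windows of S phase genes 3 (8.82%) and 6 (17.6%) did. Such shares were not particular to platelet lists. GATA was in 68.4% of 19 erythroid and 58.3% of 12 mast cell and basophil windows, ETS in 71.4% of 14 neutrophil granule and 61.5% of 13 endothelial windows, and the 20 dense granule windows had 15.0% GATA and 35.0% ETS. A match describes these letters only, and binding was not measured.

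Depth and identity were checked first. Summed per type, the 4 libraries gave 5911041 unique molecular identifiers (UMIs, one for each captured RNA molecule) in megakaryocytes and 15654617 in EMP. The whole libraries held 20484881 to 79429129 UMIs, and 0 of the compared cells shared a barcode with another library. WT 1 stood apart. Its megakaryocytes had a median of 21111 UMIs against 47527 in its EMP, whereas the medians were 48993.5 and 52654 in WT 2, 48159 and 53132 in WT 4, and 19977 and 21434 in WT 5. The log2 ratio was -0.38 ± 0.53 (SD, n = 4), lower in 4 of 4 libraries, and -0.12 without WT 1. An exact two-sided sign-flip test over 4 libraries cannot pass 0.05, and it gave the smallest p possible. Mitochondrial genes gave 3.83, 3.15, 2.74 and 2.53% of the UMIs of megakaryocytes in WT 1, 2, 4 and 5, and 2.40, 2.05, 2.47 and 1.59% of those of EMP. The shares were higher in megakaryocytes in 4 of 4 libraries, which again gave the smallest p possible. The part of depth and mitochondrial share in the results that follow was not tested.

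When each cell was thinned to 5000 UMIs, all 187 megakaryocytes held at least 3 of 10 megakaryocyte markers, with a median of 8 in every library. The EMP held a median of 1 of these, and at least 3 of 8 EMP markers were found in 33 of 59, 43 of 79, 59 of 103 and 49 of 111 cells. The median EMP held 3, 3, 3 and 2 EMP markers, and the median arterial endothelial cell held 2 in each library. Of the arterial endothelial cells, 21 of 150, 16 of 153, 58 of 319 and 34 of 214 held at least 3. The EMP markers thus set EMP apart from endothelium only in part. At least 3 megakaryocyte markers were found in 5 EMP of WT 1, 4 of WT 2, 14 of WT 4 and 21 of WT 5. At least 3 EMP markers were found in 3 of the 102 megakaryocytes of WT 5 and in 0 of those of WT 1, 2 and 4. The 8 EMP markers were Kit, Cd34, Myb, Gata2, Csf2rb, Hoxa9, Cd93 and Mpo, and not every one followed the name. Cd93 was called higher in megakaryocytes. Hoxa9, a sparse homeobox gene, was at 8.95, 4.55, 2.43 and 0.75 CPM in EMP and at 0, 4.36, 0.83 and 5.47 CPM in megakaryocytes (CPM is the count of a gene per 1000000 UMIs of a sum, after scaling by edgeR's trimmed mean of M values).

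Surface protein was the readout that the cluster names had not used. CD41, the integrin alphaIIb chain encoded by Itga2b, averaged 1891 tag counts per megakaryocyte in WT 1, 1708 in WT 2 and 436 in WT 5, against 177, 137 and 40.6 per EMP. The 3 libraries that had tags did not overlap between the types. The log2 ratio was 3.50 ± 0.13 (SD, n = 3), higher in 3 of 3 libraries (exact two-sided sign-flip p = 0.25, the smallest possible). Cell by cell, all 33, 28 and 102 megakaryocytes exceeded the EMP median of their own library, and 29, 28 and 26 of them exceeded the highest EMP. In arterial endothelial cells (aEC) of the same libraries, which should lack CD41, the mean was 16.1, 14.5 and 1.9. CD41 on EMP was thus above that background in each library, and CD41 on megakaryocytes was higher still.

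CD43, the sialomucin encoded by Spn, went the other way. Megakaryocytes averaged 192, 288 and 59.4 counts in WT 1, 2 and 5, and EMP 584, 656 and 221. The log2 ratio was -1.56 ± 0.36 (SD, n = 3), lower in 3 of 3 libraries, while the aEC means were 36.3, 37.9 and 4.8. Spn RNA was lower as well, by 4.48 ± 0.34 on the log2 scale (fit and SE, edgeR adjusted p = 8.56e-06). CD44, the hyaluronan receptor, was tagged in WT 5 alone of these libraries, where its mean was 101.8 on megakaryocytes and 290.6 on EMP. Only 8 of the 102 megakaryocytes exceeded the EMP median for CD44. Cd44 RNA fell by 1.75 ± 0.20 on the log2 scale (edgeR adjusted p = 9.47e-05).

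CD27, a receptor of the tumour necrosis factor family, averaged 92.5, 99.2 and 6.10 counts on megakaryocytes and 47.2, 45.7 and 2.13 on EMP, a log2 ratio of 1.20 ± 0.28 (SD, n = 3). It was higher in 3 of 3 libraries, and the aEC mean was 23.5, 26.0 and 2.4, above the EMP mean in WT 5. Cd27 RNA was too sparse to test, with 21 UMIs in all megakaryocytes and 57 in all EMP, whose sums were deeper. Summed without scaling factors, it averaged 3.79 CPM in megakaryocytes and 3.53 CPM in EMP.

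By mean counts per cell, the tags of CD117 and CD45.2 had no common direction in the 3 libraries, whereas the RNA of Kit and Ptprc, which encode these proteins, was lower in megakaryocytes. CD117, the Kit receptor tyrosine kinase, averaged 144.0, 144.5 and 22.0 counts on megakaryocytes and 145.9, 104.3 and 32.3 on EMP, a log2 ratio of -0.03 ± 0.51 (SD, n = 3). A part of the megakaryocytes with high counts raised this mean: the median megakaryocyte had 85, 101 and 12 counts, and 9 of 33, 15 of 28 and 24 of 102 megakaryocytes lay above the EMP median. The log2 ratio was -0.61 ± 0.65 by medians and -0.68 ± 0.34 by centred log ratios. By the latter all 3 libraries were lower (exact p = 0.25, the smallest possible). Centring sets a tag against the mean of all tags of its cell, and the CD41 that is high on megakaryocytes enters that mean. It also moved CD45.2 from 0.26 to -0.36 and CD27 from 1.20 to 0.51. The result for CD117 thus depends on the summary used. Kit RNA was at 11.2, 5.08, 6.65 and 17.7 CPM in megakaryocytes of WT 1, 2, 4 and 5 and at 78.7, 69.4, 81.8 and 80.5 CPM in EMP. Kit RNA thus did not overlap between the types and fell by 2.88 ± 0.24 on the log2 scale (edgeR adjusted p = 1.65e-05). CD45.2, the pan-leukocyte phosphatase Ptprc, averaged 142, 260.0 and 16.05 counts on megakaryocytes and 170.4, 181.9 and 11.2 on EMP (log2 ratio 0.26 ± 0.45). On cells named Myeloid it averaged 922, 954 and 44.1. Ptprc RNA was at 0, 5.81, 15.8 and 8.0 CPM in megakaryocytes and 37.4, 48.5, 28.6 and 27.1 CPM in EMP, and fell by 2.10 ± 0.42 on the log2 scale (edgeR adjusted p = 0.00254).

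**Figure D1:**
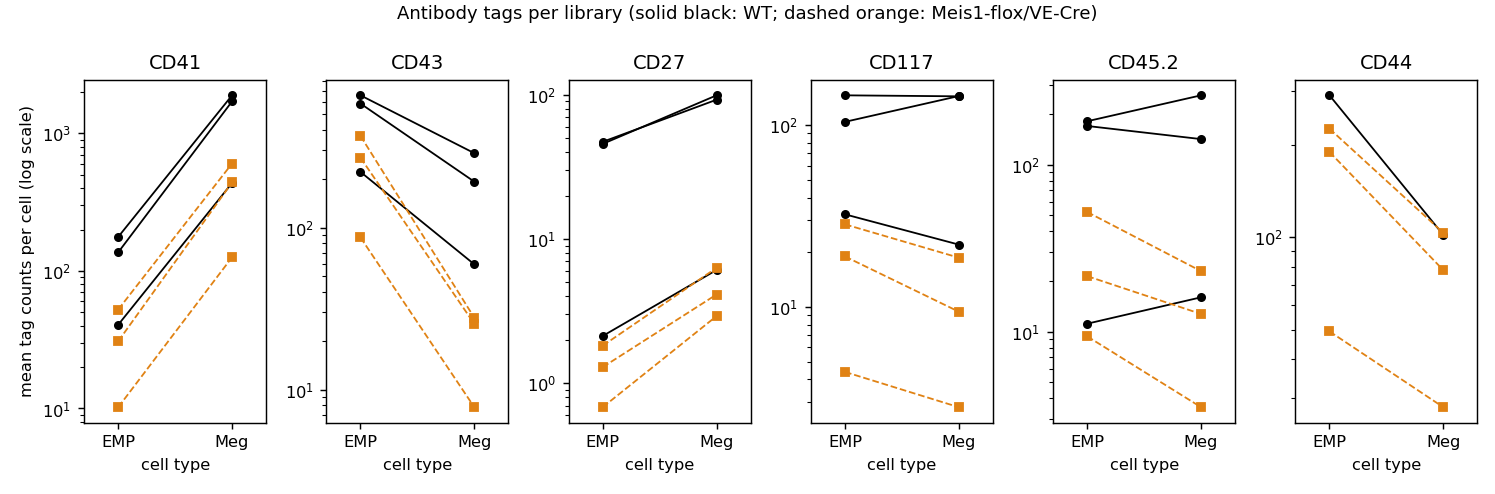
Mean antibody tag counts per cell (y axis, log scale) in EMP and megakaryocytes (Meg), with a line joining the types of each library, solid black for WT and dashed orange for Meis1-flox/VE-Cre. CD41 lies higher in megakaryocytes than in EMP in WT 1, 2 and 5, CD43 lies lower, and CD117 and CD45.2 change order between WT libraries.

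Across the transcriptome the 2 clusters were far apart. Of 9370 genes tested by edgeR's quasi-likelihood test with the library as a block, 5521 (58.9%) had a Benjamini-Hochberg adjusted p under 0.1. Of all tested genes, 2760 (29.5%) were higher in megakaryocytes and 2761 (29.5%) lower, and the levels of 4223 (45.1%) did not overlap between the 4 libraries of one type and the 4 of the other. The median log2 fold change over all tested genes was -0.02. Large differences leaned upward: 114 called genes were higher by over 5 on the log2 scale and 19 lower by as much. The sums of megakaryocytes held fewer UMIs (5911041 against 15654617 in EMP), which bounds the size of a fall sooner than that of a rise. The counts of members that follow are to be read against these shares. Fewer molecules per cell and fewer cells with a transcript cannot be told apart in the summed values. The libraries are pools of embryos, so the p-values measure the spread between pools.

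Alpha granule cargo was mostly higher in megakaryocytes. Of 24 genes on the list 23 were tested, 20 were higher, 1 lower and 2 not called, with a median log2 fold change of 3.83 beside -0.02 for all genes. Pf4 (platelet factor 4, a CXC chemokine) stood at 39708, 25939, 18821 and 17873 CPM in megakaryocytes of WT 1, 2, 4 and 5 and at 8.03, 5.23, 11.1 and 59.8 CPM in EMP. The libraries of the 2 types did not come near each other, and the fitted log2 fold change was 10.65 ± 0.71 (SE, adjusted p = 4.38e-06). Pf4 UMIs were found in 32 of 33, 27 of 28, 24 of 24 and 102 of 102 megakaryocytes. In the EMP of WT 5, a single cell with 84 UMIs held 52.8% of the 159 Pf4 UMIs. Ppbp, the neighbouring chemokine gene on chromosome 5, gave 6783 UMIs in megakaryocytes and 2 in EMP, a depth-scaled ratio of 8982 (95% interval 2486 to 74182, counting error only). Thbs1, the matrix protein thrombospondin 1, was at 2457, 1329, 883 and 1142 CPM against 2.16, 2.28, 0.69 and 16.9 CPM, a log2 fold change of 8.34 ± 0.57. Vwf, the ligand of the GPIb complex, was at 213, 136, 87.3 and 122 CPM against 0.31, 0, 1.21 and 1.13 CPM, a log2 fold change of 7.49 ± 0.36.

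Timp3, an inhibitor of metalloproteinases, rose by 6.53 ± 0.45 and Clu, the chaperone clusterin, by 5.82 ± 0.26 on the log2 scale. F5, coagulation factor V, and Mmrn1, its binding partner multimerin, were higher by 4.75 and 3.83. Ctla2a was called higher too (4.93 ± 0.42), but reads of Ctla2a and its close copy Ctla2b may have been split between them. The exceptions were Angpt1, an angiopoietin that is also a progenitor gene, which was lower, and Srgn, the proteoglycan serglycin, at 1099, 295, 281 and 342 CPM in megakaryocytes and 532, 566, 529 and 447 CPM in EMP, which was not called (-0.30 ± 0.28, adjusted p = 0.396). Srgn was higher in megakaryocytes in WT 1 and lower in the other 3. The list had no lower call without WT 4 or without WT 5, and without WT 1 the list had 2 lower calls.

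The adhesion receptors rose together. All 18 tested genes of 20 listed were higher and none overlapped between the types, with a median of 4.62. Gp1bb, the small chain of the von Willebrand factor receptor GPIb-IX-V, was at 1385, 830, 668 and 986 CPM in megakaryocytes and 17.3, 19.8, 13.7 and 23.3 CPM in EMP, a log2 fold change of 5.67 ± 0.16 (SE). The other members of that complex moved with it, namely Gp1ba (6.68 ± 0.20), Gp9 (4.99 ± 0.30) and Gp5 (5.12 ± 0.26). Itga2b was at 1035, 521, 571 and 396 CPM against 37.7, 30.9, 52.9 and 47.4 CPM (3.83 ± 0.25), and its partner in the fibrinogen receptor, Itgb3, at 663, 407, 262 and 369 CPM against 12.7, 8.65, 13.4 and 20.7 CPM (4.89 ± 0.26). The CD41 tag, which reads the protein of Itga2b, had a log2 ratio of 3.50 on its own scale.

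Gp6, the collagen receptor, gave 632 UMIs in megakaryocytes and 1 in EMP, a depth-scaled ratio of 1674 (95% interval 299 to 66214). Treml1, a receptor of alpha granule membranes, rose by 5.73 ± 0.23. Clec1b, the podoplanin receptor CLEC-2, was at 2023, 780, 832 and 810 CPM in megakaryocytes and 4.94, 5.46, 33.3 and 29.7 CPM in EMP (5.95 ± 0.58). Summed without scaling factors, Clec1b averaged 1044 CPM in megakaryocytes and 579 CPM in aEC.

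**Figure D2:**
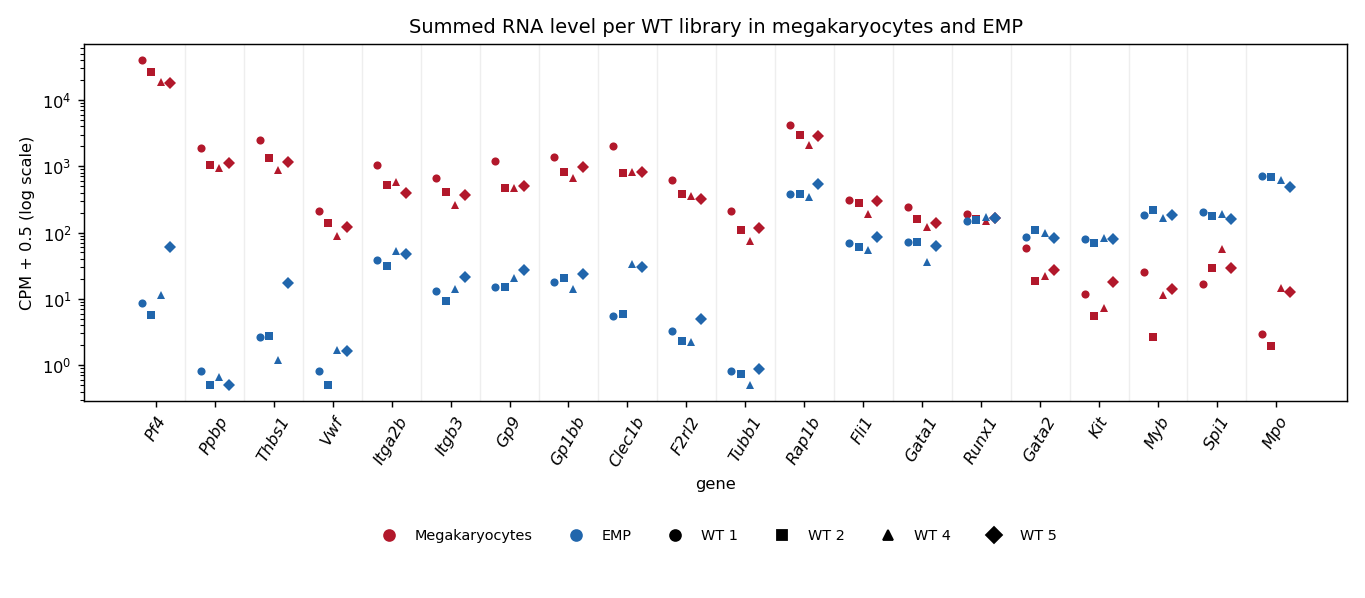
Levels of 20 named genes (x axis) as CPM + 0.5 (y axis, log scale), with megakaryocytes in red, EMP in blue and 1 symbol for each WT library. Pf4 lies between 17873 and 39708 CPM in megakaryocytes and at or under 59.8 CPM in EMP, while the Runx1 points of both types lie between 149 and 188 CPM.

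All 11 tested receptors for platelet agonists and cytokines, of 14 listed, were higher, with a median of 3.62, and 10 did not overlap. F2rl2, the thrombin receptor PAR3, was at 617, 386, 357 and 324 CPM against 2.78, 1.82, 1.73 and 4.52 CPM, a log2 fold change of 7.34 ± 0.22. F2r, the thrombin receptor PAR1, rose by 4.01 ± 0.22, P2ry1, a receptor for ADP, by 5.35 ± 0.30 and P2rx1, an ATP-gated channel, by 2.48 ± 0.17. The F2rl2 values of megakaryocytes thus lay far above those of EMP in every library.

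Genes of dense granules and of secretion were more mixed. Of 19 tested, 12 were higher, 2 lower and 5 not called, with a median of 0.58. Rab27b, the GTPase that docks granules, stood out at 1562, 911, 637 and 856 CPM against 12.7, 12.97, 13.7 and 33.1 CPM (5.78 ± 0.31), with Slc35d3, a nucleotide sugar carrier needed for dense granules, at 3.33 ± 0.23 and the syntaxin Stx11 at 4.95 ± 0.20. Vamp8, a v-SNARE of secretion, was lower by 0.79 on the log2 scale (305, 200.4, 224 and 222 CPM against 359, 388, 422 and 455 CPM). Slc18a2, which loads serotonin into granules, was not called (0.25 ± 0.29, adjusted p = 0.485). The 2 lower calls became 1 when WT 1, WT 4 or WT 5 was left out.

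Of 27 tested genes of the cytoskeleton of platelet formation, 25 were higher, 1 lower (Arpc1b, a subunit of the Arp2/3 complex) and 1 not called, with a median of 2.31. Tubb1, the beta1-tubulin of the platelet rim, gave 685 UMIs in megakaryocytes and 3 in EMP, a depth-scaled ratio of 605 (95% interval 206 to 2940). Tpm4, a tropomyosin, was at 1673, 1114, 910 and 1190 CPM against 29.0, 33.0, 54.6 and 64.4 CPM (4.76 ± 0.28), and Myl9, a myosin light chain, at 831, 327, 230.2 and 532 CPM against 1.24, 0.23, 1.04 and 0.38 CPM (9.07 ± 0.25). The integrin-linked proteins Actn1, Lims1 and Vcl rose by 3.34, 3.37 and 3.27. The actin-binding gene Cald1 and the cGMP kinase substrate gene Mrvi1, which were on no list, were among the 12 largest rises of the naming rule (5.99 ± 0.45 and 5.62 ± 0.25).

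Platelet signalling genes were higher in 24 of 25 cases and lower in 1, with a median of 1.83. Plek, the pleckstrin substrate of protein kinase C, was at 1973, 1096, 1053 and 990 CPM against 148, 113, 157 and 157 CPM (3.10 ± 0.17). Rap1b, the GTPase that activates integrins, was at 4128, 3007, 2105 and 2822 CPM against 386, 375, 345 and 540 CPM (2.85 ± 0.15), and Rasgrp2, its exchange factor, rose by 3.17 ± 0.16. The adaptor gene Apbb1ip, which links Rap1 to talin, was the exception at 11.2, 13.1, 25.8 and 16.8 CPM against 109, 110, 80.1 and 85.1 CPM (-2.47 ± 0.23). Integrin activation genes thus moved in both directions. Without WT 1 the list had 2 lower calls.

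Eicosanoid synthesis, the source of thromboxane, had 6 higher, 2 lower and 2 uncalled genes of 10 tested, with a median of 0.77. Alox12, the platelet lipoxygenase, gave 2301 UMIs in megakaryocytes and 5 in EMP. Tbxas1, thromboxane synthase, rose by 6.95 ± 0.26, and Ptgs1, the cyclooxygenase upstream of it, by 1.18 ± 0.17. The glutathione peroxidases split. Gpx4 was at 2904, 1316, 1420 and 1351 CPM against 423, 468, 486 and 463 CPM (1.83 ± 0.20), whereas Gpx1 was at 415, 501, 530 and 521 CPM against 1466, 1702, 1478 and 1664 CPM and fell by 1.68 ± 0.08. Neither gene overlapped between the types.

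**Figure D3:**
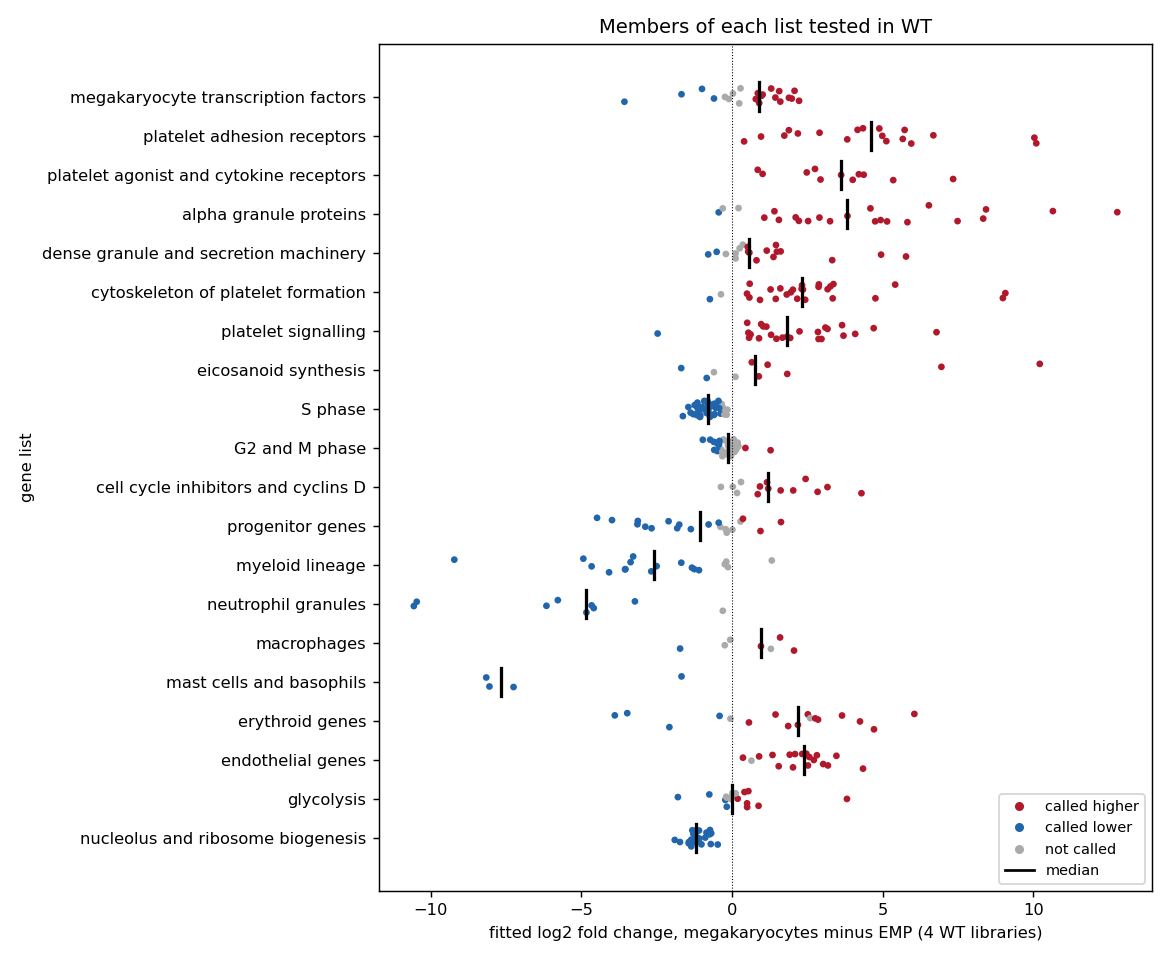
Log2 fold changes of megakaryocytes against EMP in WT (x axis) for the tested genes of the 20 lists, 1 point for each gene, coloured by its call, and a bar at each list median. All 18 adhesion receptor genes lie to the right of 0 and all 29 nucleolar genes to the left, while the points for G2 and M phase and for glycolysis lie around 0.

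The transcription factors moved both ways. Of 22 tested, 13 were higher, 4 lower and 5 not called, with a median of 0.88. Gata1 was at 242, 159.7, 119.7 and 141 CPM in megakaryocytes and 71.9, 72.6, 35.2 and 63.2 CPM in EMP, a log2 fold change of 1.44 ± 0.14 (SE, adjusted p = 3.58e-05). Fli1 was at 305, 277, 188 and 294 CPM against 68.9, 59.4, 54.1 and 85.4 CPM (1.98 ± 0.11), and Gfi1b, a repressor of erythroid and megakaryocytic cells, rose by 1.89 ± 0.27. Mef2c rose by 1.3 ± 0.09 and Nfe2, which drives late platelet genes, by 0.98 ± 0.18.

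Meis1 itself was at 189, 115, 79.8 and 115 CPM in megakaryocytes and 71.9, 58.9, 67.8 and 65.9 CPM in EMP (0.86 ± 0.17, adjusted p = 0.00221). Runx1, on the other hand, was at 188, 161, 149 and 168 CPM against 150.0, 156, 174 and 168 CPM. The Runx1 values overlapped, and no difference was found (0.03 ± 0.11, adjusted p = 0.82). Gata2, which precedes Gata1 at shared sites, was at 58.5, 18.1, 21.6 and 26.9 CPM against 85.5, 109, 96.4 and 80.9 CPM and fell by 1.67 ± 0.27. Ikzf1, the lymphoid and myeloid factor Ikaros, fell by 3.57 ± 0.26.

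Progenitor genes were mostly lower: 12 of 20 tested fell, 3 rose and 5 were not called, with a median of -1.07. Myb, which sustains progenitors, was at 24.9, 2.18, 10.8 and 13.5 CPM in megakaryocytes and 185, 218, 164 and 184 CPM in EMP, a fall of 3.98 ± 0.33 on the log2 scale. Myc was at 11.2, 15.97, 15.8 and 16.4 CPM against 105, 105, 87.4 and 93.7 CPM (-2.67 ± 0.15). Cd34 kept more of its level, at 52.3, 56.6, 109.7 and 76.2 CPM against 110, 123, 151 and 114 CPM (-0.78 ± 0.14). The 3 genes that rose were Mycn, a relative of Myc, and Cd93 and Egfl7, both also endothelial. Without WT 5 the list had 1 higher call.

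Myeloid and neutrophil granule genes were lower. Of 18 tested myeloid genes 14 fell and 4 were not called (median -2.59; 1 was higher without WT 1 and 1 without WT 5), and of 9 tested neutrophil granule genes 8 fell and 1, Srgn, was not called (median -4.83, and -5.97 without WT 4). Spi1, the myeloid master factor PU.1, was at 16.2, 28.3, 55.7 and 28.2 CPM against 202, 179, 192 and 158 CPM (-2.50 ± 0.22). Mpo, myeloperoxidase, was at 2.49, 1.45, 14.1 and 12.2 CPM against 704, 676, 610.4 and 487 CPM (-6.16 ± 0.36), and Prtn3, proteinase 3, fell by 4.59 ± 0.41. Mpo UMIs were found in 54 of 59, 73 of 79, 95 of 103 and 84 of 111 EMP cells. Elane, neutrophil elastase, was in far fewer of them, with 7, 11, 22 and 14 cells, and Cebpe, a factor of granulocytes, in 8, 10, 17 and 10. In megakaryocytes Mpo was found in 1 of 33, 2 of 28, 3 of 24 and 7 of 102 cells, and in WT 4 a single megakaryocyte held 14 of the 17 UMIs.

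S100a8 and S100a9, the calprotectin genes, were alike in the summed values and in their spread over cells. S100a9 gave 0 UMIs in megakaryocytes and 1200 in EMP, a level at least 151-fold lower, and S100a8 gave 0 and 930, at least 117-fold lower (floor of 3 counts over the group). Their EMP counts came from few cells. For S100a8, 1 cell held 261 of 264 UMIs in WT 1, 65 of 67 in WT 2 and all 365 in WT 4, and 3 cells held 99.1% in WT 5. Single cells held 99.1, 93.4 and 99.3% of the S100a9 UMIs of WT 1, 2 and 4, and in WT 5 the top cell held 47.0% and the top 3 of 5 positive cells 86.6%. Most of the EMP counts of these genes thus came from 1 to 3 cells in each library.

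Mast cell and basophil genes were lower too. All 4 tested of 11 listed fell. Cpa3, the mast cell carboxypeptidase, gave 1 UMI in megakaryocytes and 985 in EMP, a depth-scaled ratio of 372 in favour of EMP (95% interval 66.6 to 14705). Hdc, which makes histamine, gave 1 and 1121 UMIs, a ratio of 423 (75.8 to 16733). Cpa3 was found in 21 of 59, 33 of 79, 53 of 103 and 41 of 111 EMP, and Hdc in 26, 40, 42 and 28 of them, so that these transcripts were present in a part of the EMP in every library. Il1rl1, the receptor for interleukin 33, gave 0 and 112 UMIs, at least 14.1-fold lower.

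Among genes on no list, the largest falls of the naming rule included Cmtm7 (-4.10 ± 0.28), Ly6e (-3.94 ± 0.32), Emb, which encodes embigin (-3.59 ± 0.38), the integrin gene Itga4 (-3.04 ± 0.17), Phgdh, which opens serine synthesis (-2.68 ± 0.12), and Cdk6, a kinase of the G1 phase (-2.68 ± 0.18). Itga4 was at 14.9, 8.71, 13.3 and 15.6 CPM in megakaryocytes and 116, 114, 105 and 102 CPM in EMP. Phgdh was at 53.6, 70.4, 111 and 67.4 CPM against 462, 482, 573 and 409.9 CPM. Neither gene overlapped between the types.

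Genes of S phase were lower as a list, and those of G2 and M phase mostly were not called. Of 42 tested S phase genes 37 were lower and 0 higher (median -0.80), beside 29.5% of all genes called lower. Mcm7, a subunit of the replicative helicase, was at 76.0, 87.8, 224 and 134 CPM in megakaryocytes and 252, 228, 377 and 254 CPM in EMP (-1.16 ± 0.15). Hells, a chromatin remodeller of replication, fell by 1.63 ± 0.10, and Ccne1, cyclin E1, by 1.28 ± 0.21. Of 40 tested G2 and M phase genes, however, 11 were lower, 2 higher and 27 not called (median -0.14). Mki67 was at 128, 286, 213 and 219 CPM against 209.6, 235, 158 and 150.2 CPM and was not called (0.17 ± 0.18, adjusted p = 0.457), and Top2a was not called either (-0.10 ± 0.11). The 2 that rose were Cit, the citron kinase of cytokinesis (1.28 ± 0.13), and Anln, the furrow protein anillin (0.45 ± 0.16). Without WT 1 the higher calls were 7 and the median 0.06, and without WT 5 the higher calls were 1.

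The joint list of cell cycle inhibitors and D cyclins was mostly higher. Of 14 tested inhibitors and D cyclins 10 rose and 0 fell (median 1.18). Cdkn2d, an INK4 inhibitor of cyclin-dependent kinases, was at 608, 395, 401 and 343 CPM against 62.1, 56.4, 57.7 and 61.7 CPM (2.84 ± 0.13). Rb1, the retinoblastoma gene, was at 148, 97.3, 74.0 and 91.8 CPM against 4.94, 5.01, 3.81 and 6.77 CPM (4.30 ± 0.18). Cdkn1c, the inhibitor p57, rose by 3.17 ± 0.38 and the cyclin gene Ccnd1 by 2.03 ± 0.20, so that both inhibitors and D cyclins were among the rises.

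All 29 tested genes of the nucleolus and ribosome biogenesis were lower and none overlapped, with a median of -1.18. Their summed level was 5546 to 8140 CPM in megakaryocytes and 15268 to 16749 CPM in EMP. Npm1, nucleophosmin, was at 2301, 3200, 3726 and 3415 CPM against 5869, 6686, 7193 and 6879 CPM (-1.09 ± 0.07), Ncl, nucleolin, fell by 1.18 ± 0.11 and Rrp1b by 1.90 ± 0.15. Glycolysis genes showed no common direction, with 7 higher, 4 lower and 6 not called of 17 (median 0.01, and -0.07 with scaling by total counts). Slc2a3, the glucose transporter GLUT3, was at 647, 242, 194 and 269 CPM against 23.8, 21.6, 18.6 and 21.8 CPM (3.82 ± 0.22), whereas Hk2, hexokinase 2, fell by 1.79 ± 0.25 and Hk1 rose by 0.88 ± 0.19. Without WT 4 the higher calls on glycolysis genes were 4, and without WT 2 or without WT 5 the lower calls were 2.

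Markers of other cell types were read for their whole lists. Erythroid genes summed to 749.7 to 7685 CPM in megakaryocytes and 435 to 531 CPM in EMP, with 11 higher, 4 lower and 2 not called of 17 tested. The globins were uneven between libraries and cells. Hbb-bh1 was at 686, 789.9, 23.3 and 194 CPM in megakaryocytes of WT 1, 2, 4 and 5 and 29.9, 30.5, 62.1 and 41.0 CPM in EMP (2.86 ± 0.85, adjusted p = 0.0188), and lost its call without WT 2 (2.06, adjusted p = 0.128). In WT 2 a single megakaryocyte held 980 of 1088 Hbb-bh1 UMIs, 4766 of 4867 Hbb-y UMIs and 2493 of 2502 Hba-x UMIs. Hba-a1 was at 893, 515, 182 and 91.0 CPM against 5.25, 2.28, 8.32 and 4.14 CPM (6.05 ± 0.50), with 19 of 33, 11 of 28, 8 of 24 and 20 of 102 megakaryocytes holding a UMI. Its reads may be shared with the near-identical Hba-a2. Klf1, the erythroid master factor, was lower at 4.98, 2.18, 2.49 and 1.68 CPM against 43.5, 48.0, 26.7 and 34.2 CPM (-3.89 ± 0.26). Hba-a1 was higher and Klf1 lower in 4 of 4 libraries, whereas Hbb-bh1 was higher in WT 1, 2 and 5 and lower in WT 4. The lower call on Car2, a carbonic anhydrase, had an adjusted p of 0.128 with WT 4 left out and of 0.264 with WT 5 left out, and so was lost.

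Endothelial genes summed to 970 to 1497 CPM in megakaryocytes and 188 to 503 CPM in EMP, with 17 higher and 1 not called of 18 tested (median 2.40). They differed in their spread over cells. Kdr, the VEGF receptor 2, was at 157, 127, 98.9 and 161 CPM against 4.32, 4.78, 22.2 and 19.9 CPM (3.47 ± 0.40) and was found in 30 of 33, 24 of 28, 18 of 24 and 75 of 102 megakaryocytes. Esam, a junction protein also known on platelets, was found in 30, 25, 19 and 73 of them. In WT 1, 2, 4 and 5 the top 3 megakaryocytes held 44.4, 50.3, 64.7 and 17.3% of the Kdr UMIs. For Esam these shares were 28.0, 38.9, 39.3 and 12.4%. Cdh5, VE-cadherin, the defining endothelial cadherin, was found in only 2 of 33, 5 of 28, 5 of 24 and 34 of 102, and 3 cells held 100.0, 97.1 and 94.0% of its UMIs in WT 1, 2 and 4 but 23.0% in WT 5. Emcn, endomucin, had the same spread, with 100.0, 95.1, 86.9 and 20.5% in the top 3 cells. Pecam1, which encodes the antigen of the sort, was at 82.2, 46.5, 59.0 and 59.8 CPM against 28.1, 25.7, 45.3 and 31.6 CPM (0.90 ± 0.18). The part of endothelial and erythroid RNA in the other results was not tested.

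Macrophage genes were few and sparse, with 7 of 14 tested, 3 higher, 1 lower and 3 not called. C1qb, of complement, was found in 2, 3, 1 and 6 megakaryocytes of WT 1, 2, 4 and 5, and in WT 2 1 cell held 69 of 71 UMIs. Lyz2, lysozyme, was at 67.3, 60.3, 134 and 51.8 CPM against 43.5, 36.0, 46.1 and 30.1 CPM (0.96 ± 0.17), and Apoe fell by 1.72 ± 0.13. Csf1r, the defining macrophage receptor, was at 0, 8.71, 12.5 and 6.74 CPM in megakaryocytes and not called. Leaving out WT 1 or WT 4 gave 5 higher calls on this list. A doublet caller marked 0 of the 187 WT megakaryocytes and 2 of the WT EMP.

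The summed values were matched by shares of cells. After thinning to 5000 UMIs, Pf4 was found in 97.1% ± 2.6 of megakaryocytes (SD, n = 4 libraries), 5.6% ± 6.5 of EMP and 4.1% ± 5.1 of aEC, so that the EMP share was close to that of a cell type that should lack Pf4. For Itga2b the shares were 87.6% in megakaryocytes, 21.1% in EMP and 4.3% in aEC, and for Plek 97.4, 47.8 and 0.3%. Both were thus above the aEC share in EMP too. Ppbp was found in 59.2% ± 6.6 of megakaryocytes and in 0 of 352 EMP. Gata1 was found in 63.3, 23.7 and 0.3% of these cell types, and Gata2 in 17.3, 33.9 and 5.3%. Myb was found in 1.0% of megakaryocytes and 54.6% of EMP, and Mpo in 1.8 and 68.1%. Kit was found in 2.7% of megakaryocytes, less than the 15.4% of aEC, and in 33.2% of EMP.

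**Figure D4:**
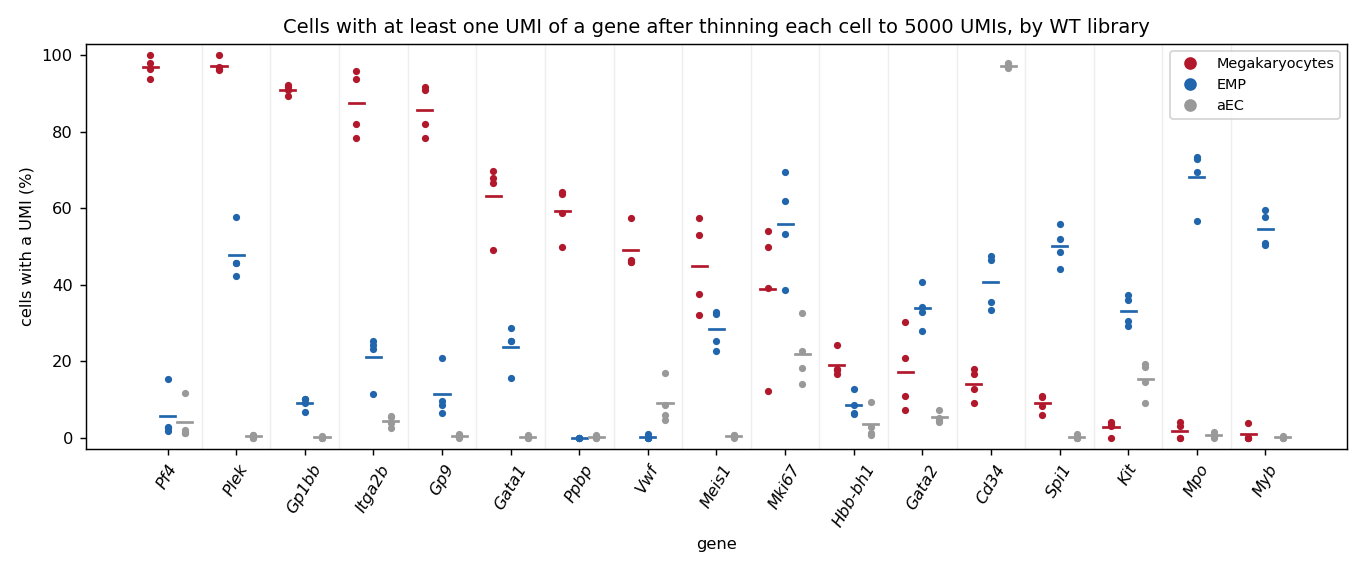
Share of cells with at least 1 UMI (percent) after each cell was thinned to 5000 UMIs, for megakaryocytes, EMP and aEC, with a point for each of the 4 WT libraries and a bar at their mean. Pf4 is in 97.1% of megakaryocytes and 5.6% of EMP, whereas Myb is in 1.0% and 54.6%.

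The order of the WT clusters by level was read for Pf4 and Vwf. Summed per library without scaling factors, Pf4 averaged 24252 CPM in megakaryocytes, 98.3 CPM in Myeloid cells, 41.2 CPM in EHT cells, 21.1 CPM in EMP and 8.8 CPM in aEC (n = 4). The preHE cluster and the endothelial clusters named vEC lay between EMP and aEC, with means of 9.3 to 13.7 CPM. The EMP libraries ranged from 5.36 to 58.9 CPM. For Vwf the preHE cluster averaged 604 CPM and megakaryocytes 132.5 CPM. These levels describe clusters that were drawn on the same RNA.

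The same comparison was made in Meis1-flox/VE-Cre. The Meis1 allele is deleted within the gene, whereas the UMIs are read near the 3′ end of transcripts, so that Meis1 counts do not check the deletion. Meis1 averaged 60.05 CPM in megakaryocytes and 27.4 CPM in EMP of the 3 libraries and was called higher in megakaryocytes there too (1.14 ± 0.17). Of 8415 genes tested, 4222 (50.2%) were called. Of the 5016 genes called in WT and tested here, 4769 had the same direction, 3544 were called in that direction, and 18 were called in the opposite one. Of 100 named genes called in WT and tested in both, 98 had the same direction. The clusters had been drawn on the RNA of both genotypes together. Named genes beyond the key genes had also been picked by their change and shared direction in WT. These counts thus describe the clusters in other libraries and are no independent test. The named genes that turned direction were Lyz2 and Btg1, an antiproliferative gene, with log2 fold changes of -0.28 and -0.11 in Meis1-flox/VE-Cre and 0.96 and 1.20 in WT.

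Pf4 averaged 14016 CPM against 15.0 CPM (9.84 ± 0.11). Hbb-bh1, uneven in WT, averaged 7941 CPM against 401 CPM (4.26 ± 0.08), and its spread over the cells of this group was not read. The doublet caller marked 3 of 64, 4 of 65 and 0 of 38 megakaryocytes of Meis1-flox/VE-Cre 1, 2 and 3, and they were kept. Runx1 averaged 110.5 CPM against 192 CPM and was called lower (-0.79 ± 0.12, adjusted p = 3.46e-05), while it was not called in WT, and the difference between the genotypes was not tested. CD41 tags averaged 604, 439.9 and 126 counts on megakaryocytes of Meis1-flox/VE-Cre 1, 2 and 3 and 52.4, 30.8 and 10.2 on EMP. CD43 averaged 27.8, 25.5 and 7.79 against 369, 270.4 and 87.0. Over the 6 libraries with tags of both genotypes, the log2 ratio was 3.58 ± 0.16 for CD41, -2.55 ± 1.11 for CD43 and 1.53 ± 0.42 for CD27, each with the same direction in 6 of 6 libraries (exact two-sided sign-flip p = 0.03125 for each, the smallest possible). For CD117 it was -0.39 ± 0.53 (exact p = 0.09375) and for CD45.2 -0.43 ± 0.83 (exact p = 0.28125). These means hide a gap between the genotypes. The CD43 ratios were -1.60, -1.19 and -1.90 in WT and -3.73, -3.41 and -3.48 in Meis1-flox/VE-Cre. Those of CD45.2 were -0.26, 0.52 and 0.53 against -1.18, -0.75 and -1.41. The ratios of CD117 and CD27 did not overlap between the genotypes either, whereas those of CD41 did. The differences between the genotypes were not tested. Adjusted over the 8 measures compared over both genotypes, the sign-flip p was 0.05 for each of CD41, CD43 and CD27.

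**Figure D5:**
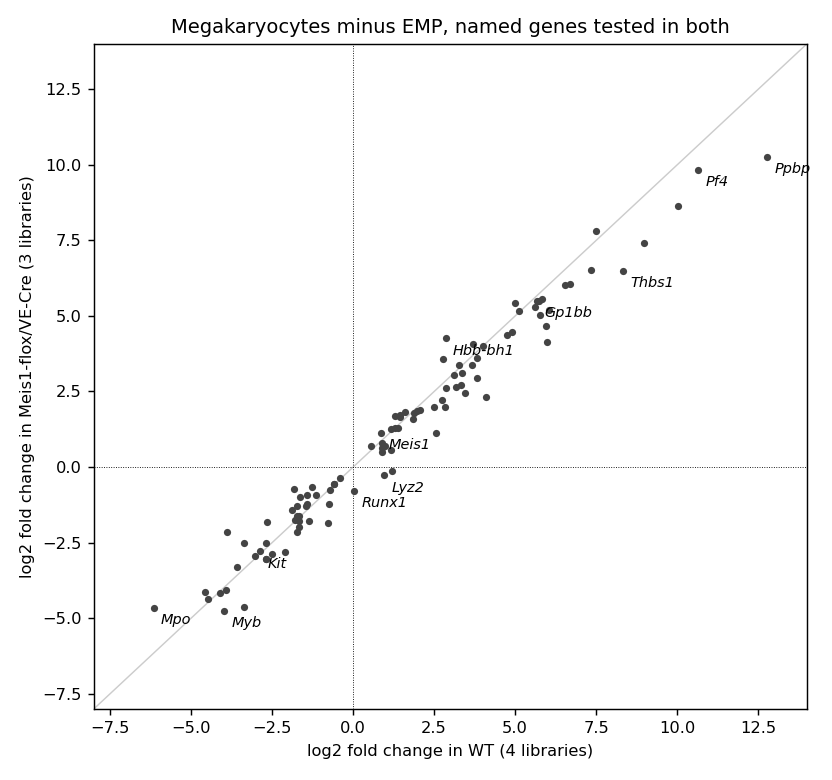
Log2 fold changes of megakaryocytes against EMP for the named genes tested in both genotypes, with WT on the x axis and Meis1-flox/VE-Cre on the y axis and a line of equal values. Pf4 lies at 10.65 and 9.84, and Lyz2 and Btg1 are the named genes that lie below 0 in Meis1-flox/VE-Cre while called higher in WT.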

How the data were processed

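Single-cell CITE-seq of CD31+ cells from dissected AGM at E10.5 was taken from the UMI counts per gene and cell and the antibody tag counts that the authors deposited, with their cell annotation. Per the submitters' processing notes these counts came from Cell Ranger 3.0.2 with mm10. The authors had kept cells by a minimum of genes (the fewest in the files is 2001) and under 10% mitochondrial UMIs, and had clustered and named the cells on integrated RNA. Groups came from the sample labels. The members and gene lists were chosen with earlier results of these data known.

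Raw counts of each type were added up within a library wherever it held 10 or more such cells. Genes were kept by edgeR's filter, scaled by trimmed mean of M values and tested with edgeR 4.0.16 (R 4.3.3) in a quasi-likelihood fit with the library as block, adjusted by Benjamini-Hochberg, and called under 0.1. Both types of a library come from one pool of embryos. In a check of this pairing, deviations from the type means correlated within libraries by 0.235 to 0.731 and between libraries by -0.416 to 0.132. Without the replicate block 5165 genes were called in WT in place of 5521 with it. WT counts of 8735 genes were simulated with the dispersions of this fit. In them 200 genes were changed by 1.5 on the log2 scale and all others had no change. The fit found 86.5% of the 200, and 8.0% of its calls were false. In the data 58.9% of genes were called, so the simulated share of false calls does not carry over to them. Named genes were 34 key genes whatever their change, and the 12 largest rises and falls, and the 4 largest changes of each list, among genes called, changed the same way in all 4 libraries and with a mean log2 CPM of at least 5 (pseudocount 0.5), and other list members named in the text were chosen after their values were seen. Tag counts and UMIs per cell were compared by exact sign-flip tests over libraries, with WT 4 having no tags under a matching cell name. Scrublet (in scanpy 1.11.5) marked 118 of 15168 cells (0.778%), and marked cells were kept. Alternatives were other scaling, DESeq2 1.42.0, other thresholds, filters and cell minimums, thinning, no block, and leaving out each library. Intervals cover counting error only. Some genes that met the naming rule are not reported here.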

Additional observations from a re-analysis of the deposited data

Results flagged for a closer look

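In each group of 4 libraries, the log2 difference between megakaryocytes and EMP was searched for a library far from the other 3. Of 104 such tests 6 gave one, where chance gives about 1 in 20. WT 1 was the distant library in 4 of them. The UMIs per cell had a log2 ratio of -1.17 there and between -0.14 and -0.10 in the other 3. Cd44 RNA differed by -2.86 in WT 1, beside a median of -1.59. The nucleolar GTPase gene Gnl3 differed by -2.06, beside -1.29. Gpx4 differed by 2.78, beside 1.55. F2rl2 was distant in WT 5, at 6.01 beside a median of 7.35, and Lyz2 in WT 4, at 1.53 beside 0.75.

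Lyz2 also had opposite directions in the 2 genotypes: it was higher in megakaryocytes in all 4 WT libraries, with a fitted log2 fold change of 0.96, and lower in all 3 Meis1-flox/VE-Cre libraries, with -0.28. The difference was not tested.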

How the results depend on the processing

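Of the list medians and counts under the alternatives, 806 stayed close to the reported value (counts within 1.5 times, medians within the spread between libraries) and 94 moved further. Of the values of single genes under the alternatives, 1490 kept direction and call, 32 lost the call and 3, all of Runx1, turned direction. Runx1 was -0.051 with scaling by total counts, -0.036 without a filter on low counts, -0.043 without WT 1 and 0.14 without WT 4. The number of genes called in WT was 951 (655 higher, 296 lower) with Bonferroni adjustment and 2213 (1123 and 1090) with cells thinned to 5000 UMIs. In Meis1-flox/VE-Cre it was 1263, 2307 and, with DESeq2, 2425. Leaving out 1 library gave 4604 to 5363 calls in WT (2353 to 2755 higher, 2251 to 2608 lower) and 3585 to 4066 in Meis1-flox/VE-Cre. Leaving out the replicate block changed the count in WT to 5165 and in Meis1-flox/VE-Cre to 3642.

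The CD117 log2 ratio was -0.61 with medians and -0.68 with centred log ratios, turned to 0.020 with sums of at least 5 cells and ranged from -0.29 to 0.23 with 1 library left out. CD45.2 turned to -0.10 with medians, -0.36 with centred log ratios and -0.43 over both genotypes, and ranged from 0.13 to 0.52 with 1 library left out. Over both genotypes, where the design can pass 0.05, the values were -0.32 for UMIs per cell, 0.87 percentage points for the mitochondrial share, 3.58 for CD41, -2.55 for CD43 and 1.53 for CD27. Leaving out 1 WT library gave ranges of -0.47 to -0.12 for UMIs per cell, 0.77 to 1.16 for the mitochondrial share, 3.42 to 3.53 for CD41, -1.75 to -1.39 for CD43 and 1.05 to 1.32 for CD27. The causes were not tested. With 3 libraries the tags could not reach p under 0.05 in WT, and the 24 to 33 megakaryocytes of WT 1, 2 and 4 limit sparse genes.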

Other observations

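The share of cells named Megakaryocytes differed between the WT libraries. It was 2.15% in WT 1, 1.84% in WT 2, 0.77% in WT 3 (5 of 651 cells), 0.92% in WT 4 and 4.82% in WT 5 (exact Clopper-Pearson 95% intervals of 0.25 to 1.78% in WT 3 and 3.95 to 5.83% in WT 5, counting error only). The EMP share was 3.84, 5.19, 5.84, 3.96 and 5.25% in the same order. WT 5 thus held the most megakaryocytes and the fewest UMIs per cell, and WT 5 was the library without which fewest genes were called.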
